A study of Mus musculus with 10 samples.

Results

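Macrophages and other leukocytes in the thoracic aorta were followed through 33 marker genes, taken by symbol from the table of 55426 genes in which each aorta has 1 column of TPM values. TPM is a length-corrected share of the library, scaled to the same total in every aorta, so levels can be compared between genes. The aortas came from 3 control mice (Prdm16f/f) and 3 Prdm16SMKO mice (Prdm16f/f, SMMHC-CreERT2), so both groups carried the floxed Prdm16 allele and the Cre transgene was listed for the Prdm16SMKO mice alone. SMMHC-CreERT2 is driven by the promoter of the smooth muscle myosin heavy chain gene Myh11 and becomes active with tamoxifen, given by gavage to adult Prdm16SMKO mice before a washout. Whether the sequenced control mice also received it is not given in the sources used here. An effect of Cre or tamoxifen itself and an effect of the deletion therefore cannot be told apart. The mice were on a C57BL/6J background. The deletion was directed at smooth muscle and not at leukocytes. A second assay of the series, ChIP-Seq of Flag-tagged PRDM16 in primary vascular fibroblasts (wild type), contributed 1 anti-Flag peak list for PRDM16 and 1 for the empty vector. The fibroblasts had received PRDM16 or the vector by lentivirus, so the peaks are those of introduced and not of native PRDM16.

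Macrophages are the main immune cells of the healthy artery wall. They depend on the growth factor CSF1 and its receptor CSF1R, and many of those in the adventitia, the outer layer, are long-lived resident cells that carry LYVE1, the mannose receptor and the folate receptor FOLR2. They take up dying cells and debris and make the complement subunits C1QA to C1QC. They also signal through Fc receptors and other surface receptors, with the adaptor chains FCER1G and TYROBP. Monocytes carrying CCR2 enter from the blood, and lymphocytes and neutrophils are scarce in a healthy vessel. In bulk RNA, fewer cells of a type and less RNA per cell cannot be told apart, and leukocyte RNA can come from the wall, from attached tissue or from blood.

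Prdm16 itself measured 56.1, 47.6, and 40.3 TPM in control replicates 1 to 3 and 23.3, 33.3, and 23.4 TPM in Prdm16SMKO replicates 1 to 3. The groups did not overlap, and the limma test across all genes gave an adjusted p of 0.0725 (log2 fold change −0.85 ± 0.18, SE). The smooth muscle markers identify the tissue, with Acta2 at 11024 to 12433 TPM in control and 6455 to 8230 TPM in Prdm16SMKO aortas. Among 15668 genes with a mean of at least 0.5 TPM over the 6 aortas, 168 (1.07%) passed an adjusted p of 0.05 by limma on log2(TPM + 0.1), with 61 (0.389%) higher and 107 (0.683%) lower in Prdm16SMKO. Nothing in the labels says more than that each aorta is a separate sample, so the p values measure the spread between these samples.

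The summed level of the 33 genes differed between the genotypes by less than its spread between aortas, and 1 gene of the list, Aif1, rose. Abundant macrophage genes and Csf1 carried the sum. The lymphocyte genes gave it means of 0.603 TPM in control and 0.587 TPM in Prdm16SMKO, and the neutrophil pair 1.77 and 0.713 TPM. The 33 genes summed to 201, 142, and 156 TPM in the control aortas and 200, 128, and 165 TPM in the Prdm16SMKO aortas, means of 166 ± 31 and 164 ± 36 TPM (SD, n = 3 each), or 98.5% of control. Without Csf1, the one gene of the list that encodes a secreted growth factor for these cells rather than a leukocyte product, the sum was 101% of control. Of the 33 genes, 27 reached the mean of 0.5 TPM and were tested. The other 6 (Fcgr1, Cx3cr1, Ccr2, Cd3e, Cd3d, and Cd79a) had means from 0.055 to 0.385 TPM. Of the 27, 1 rose (Aif1) and 0 fell by the limma test, against 1.07% of all genes that passed in either direction, and 2 had an unadjusted p under 0.05. The fold changes were split, 14 above 0 and 13 below, with a median log2 fold change of 0.00 against −0.12 over all genes tested. Rescaling by median ratio, which brought the median of all genes to 0.00, moved the median of the 27 to 0.12, with 20 above 0 and 7 below.

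**Figure D1:**
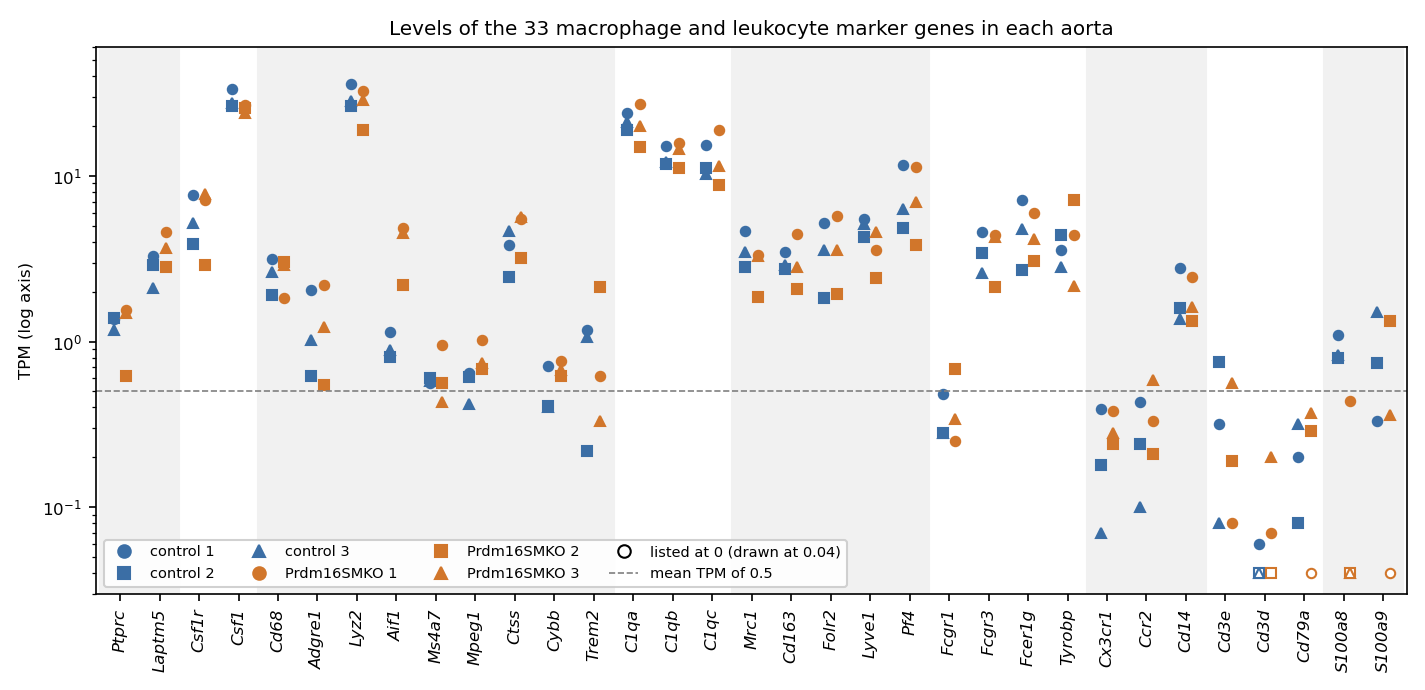
Each symbol is 1 aorta (blue control, orange Prdm16SMKO) and the vertical axis is TPM on a log scale, with genes grouped by role in shaded blocks. Lyz2, Csf1, and the C1q genes are the most abundant, the groups of nearly every gene overlap, and Aif1 stands out with all 3 Prdm16SMKO aortas above all 3 control aortas.

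Aortas of one genotype differed among themselves. The summed level of the 33 genes differed 1.41-fold between the highest and the lowest control aorta and 1.56-fold within Prdm16SMKO. Prdm16SMKO replicate 1 was the highest aorta for 12 of the 27 genes, against 8.24% of all genes tested, and control replicate 1 was the highest for 10, against 46.1% of all genes. Prdm16SMKO replicate 2 was the lowest for 14, against 8.69% of all genes. Many of the macrophage genes were thus high or low in the same aorta, as the map of marker genes by aorta shows. Adipocyte markers, a measure of attached fat, summed to 693 to 2399 TPM in control and 654 to 1448 TPM in Prdm16SMKO, and their part in the spread of the leukocyte genes was not tested. The 95% intervals of the log2 fold changes reached from 0.30 (Csf1) to 2.24 (S100a9) on either side, with a median of 0.80. For 12 genes, among them Lyz2, Cd68, Csf1r, Cd163, Fcgr3, and the 3 C1q genes, the interval lay within a 2-fold change in either direction.

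**Figure D2:**
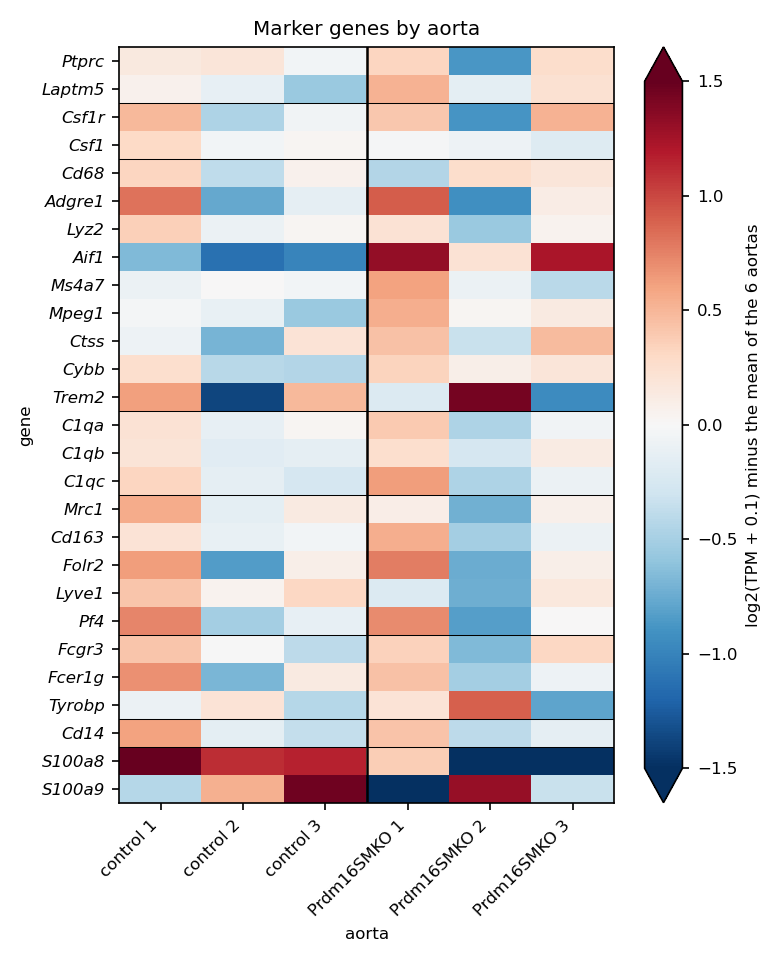
Rows are the 27 genes tested and columns the 6 aortas, with color for log2(TPM + 0.1) minus the mean of the 6 aortas (red higher, blue lower, color scale ending at ±1.5). Most macrophage rows are red in control replicate 1 and Prdm16SMKO replicate 1 and blue in Prdm16SMKO replicate 2, while Aif1 is blue in all 3 control aortas and red in all 3 Prdm16SMKO aortas.

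Aif1, which encodes the calcium-binding and actin-bundling protein known as IBA1 and widely used as a macrophage and microglia marker, was 4-fold higher in Prdm16SMKO. It measured 1.15, 0.81, and 0.89 TPM in control replicates 1 to 3 and 4.82, 2.20, and 4.52 TPM in Prdm16SMKO replicates 1 to 3. The lowest Prdm16SMKO aorta lay above the highest control aorta. The means were 0.950 ± 0.178 and 3.85 ± 1.43 TPM (SD, n = 3), and the log2 fold change was 1.85 ± 0.35 (SE, 95% interval 1.05 to 2.64, adjusted p = 0.0497 by limma). The adjusted p lay just under the threshold. Over 15 alternative settings the log2 fold change stayed between 1.27 and 2.20, while the adjusted p ran from 0.016 to 0.183 and was under 0.05 in 5 of them. Leaving out either of Prdm16SMKO replicates 1 and 3, or any of the 3 control aortas, took the adjusted p over the threshold, to 0.183 without Prdm16SMKO replicate 1 and 0.168 without Prdm16SMKO replicate 3, and to 0.106, 0.137, and 0.135 without control replicates 1, 2, and 3.

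Set against other leukocyte genes of the same aorta, Aif1 was also higher in every Prdm16SMKO aorta, a comparison chosen after its values were seen and given without a test. Per 100 TPM of the summed C1q genes, Aif1 held 2.10, 1.93, and 2.04 TPM in the control aortas and 7.75, 6.28, and 9.79 TPM in the Prdm16SMKO aortas. Per 100 TPM of Lyz2, it held 3.23, 3.09, and 3.12 TPM in control and 14.9, 11.7, and 15.6 TPM in Prdm16SMKO. The control values lay close together on both scales and below every Prdm16SMKO value. Per 100 TPM of Cd68 the Prdm16SMKO values were more scattered, at 36.3, 42.4, and 33.7 TPM in control and 262, 72.4, and 157 TPM in Prdm16SMKO. Per 100 TPM of Csf1r or Ptprc the groups did not overlap either, with means of 17.6 and 66.9 TPM for Csf1r and 72.8 and 324 TPM for Ptprc in control and Prdm16SMKO.

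**Figure D3:**
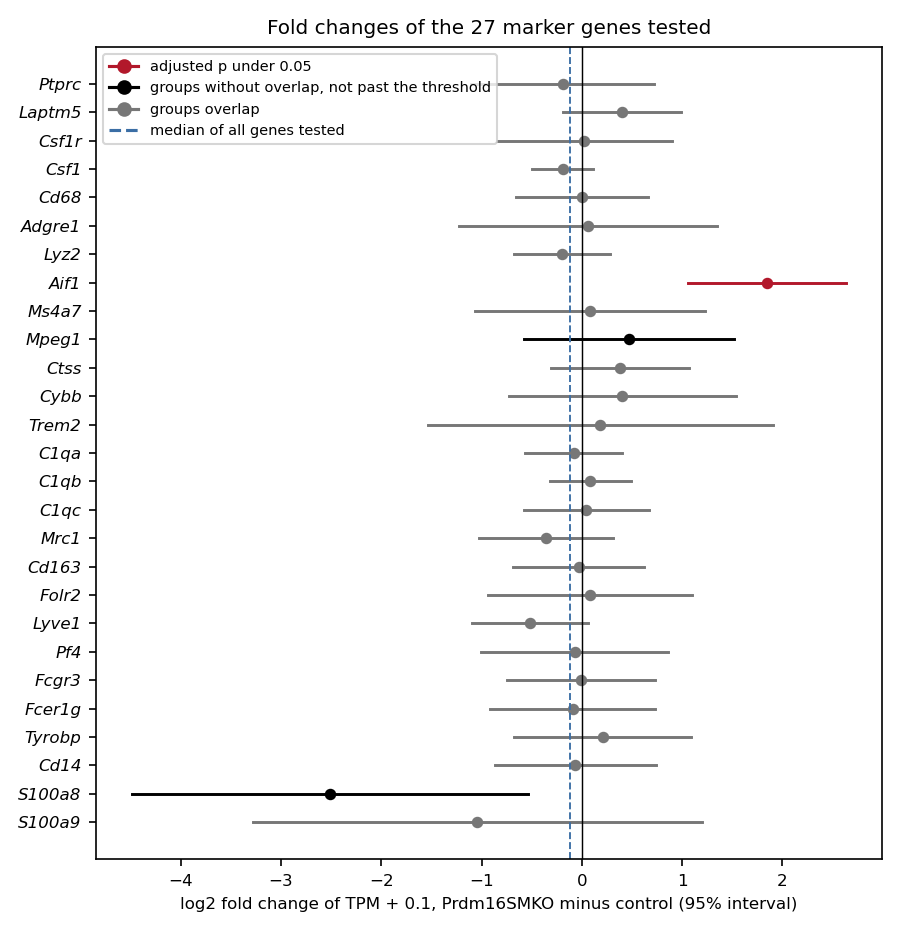
Points are log2 fold changes of TPM + 0.1, Prdm16SMKO minus control, with 95% limma intervals for the 27 genes tested, and the dashed line is the median of all genes tested. Aif1 is the one gene past the adjusted threshold, and Mpeg1 and S100a8 are the other genes whose groups do not overlap. The intervals of all genes but Aif1 and S100a8 cross 0.

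In GRCm38, Aif1 occupies chr17:35170991-35176068 on the minus strand, between Prrc2a and Lst1 in the major histocompatibility complex, and no other annotated gene overlaps it. Its promoter is printed because it is the one gene of the list that rose. The RefSeq window from 250 bases before to 50 after the start (GRCm38.p6, chr17:35176003-35176302, minus strand) is shown 5′ to 3′ with its single CpG in capitals, a count that 94.6% of all such windows reach or exceed.
Aif1: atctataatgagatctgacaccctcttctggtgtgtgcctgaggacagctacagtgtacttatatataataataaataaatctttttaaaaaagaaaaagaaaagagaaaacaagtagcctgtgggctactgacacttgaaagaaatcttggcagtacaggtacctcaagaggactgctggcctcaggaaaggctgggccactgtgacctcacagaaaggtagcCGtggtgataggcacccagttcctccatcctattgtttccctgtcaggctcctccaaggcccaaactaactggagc
Within 1 Mb of Aif1, 81 genes were tested, Aif1 itself counted, and 2 were called, both higher, against 1.07% of all genes. They were Aif1, around which the window was set because it was called, and H2-Eb1, which encodes an MHC class II β chain. The call of Aif1 was thus fixed in advance, and H2-Eb1 was the only other call. The direct neighbours had log2 fold changes of 0.01 (Prrc2a) and 0.37 (Lst1, a leukocyte gene). Lst1 was low, at 0 to 0.59 TPM in control and 0 to 1.16 TPM in Prdm16SMKO. Farther out, Nfkbil1 and Bag6 had log2 fold changes of 0.05 and −0.27, and none of these genes passed the threshold. Of the 81 genes, again with Aif1 counted, 17 had groups without overlap, against 19.0% of all genes, with 10 higher and 7 lower, against 4.08% and 14.9%. Among those higher were H2-Ab1, H2-Aa, H2-Q4, and H2-Q6, with log2 fold changes of 1.21, 1.12, 0.78, and 1.58, none past the threshold. The median log2 fold change of the 81 was −0.04.

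**Figure D4:**
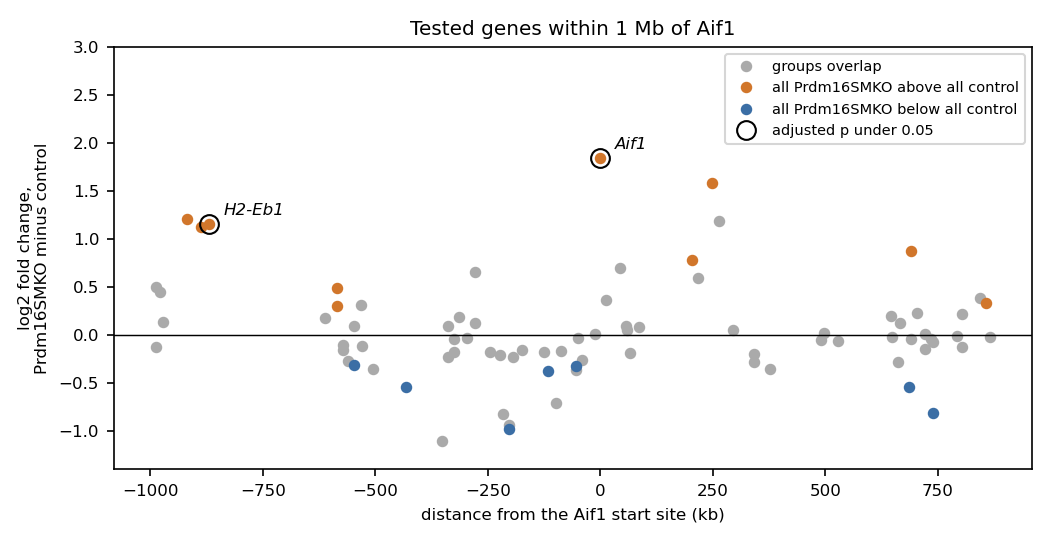
The horizontal axis is the distance of each gene's start site from that of Aif1 in kb, negative toward lower coordinates, and the vertical axis is the log2 fold change, Prdm16SMKO minus control, of each tested gene. Circled points passed an adjusted p of 0.05 and colors mark groups without overlap. Aif1 is the highest point and the other genes lie on both sides of 0. H2-Q6 reaches 1.58 at 248.8 kb, and H2-Eb1 lies at −870.2 kb.

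Among the other macrophage genes, 8 of the 9 pan-macrophage genes had a fold change above 0, but only Aif1 passed the test. Lyz2, the gene for lysozyme M, was the most abundant gene of the whole list, at 35.6, 26.3, and 28.5 TPM in control and 32.4, 18.9, and 28.9 TPM in Prdm16SMKO. These values overlapped (log2 fold change −0.20 ± 0.21, adjusted p = 0.736 by limma). Mpeg1, the gene for the pore-forming protein perforin-2, was at 0.65, 0.61, and 0.42 TPM in control and 1.02, 0.68, and 0.74 TPM in Prdm16SMKO. Its groups did not overlap, but the levels were low and the adjusted p was 0.709 (log2 fold change 0.47 ± 0.46). Across all genes tested, 19.0% had groups without overlap (4.08% higher, 14.9% lower), and among the 27 it was 3, Aif1 and Mpeg1 higher and S100a8 lower. The remaining genes of the group were Cd68, a lysosomal glycoprotein, Adgre1 (F4/80), Ms4a7, the protease cathepsin S (Ctss), the NADPH oxidase subunit Cybb (NOX2), and the lipid receptor Trem2. Their log2 fold changes ran from 0.00 (Cd68) to 0.40 (Cybb), with overlapping groups. Trem2 varied most between aortas, from 0.22 to 1.17 TPM in control and from 0.33 to 2.14 TPM in Prdm16SMKO.

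The complement C1q genes, whose products form the recognition unit of the classical pathway and which tissue macrophages express strongly, overlapped between the genotypes. Their sum was 54.7, 42.0, and 43.6 TPM in control and 62.2, 35.0, and 46.2 TPM in Prdm16SMKO, 102% of control. The Prdm16SMKO aortas held both the highest and the lowest value. C1qa, the most abundant of them, measured 24.1, 19.0, and 21.2 TPM in control and 27.3, 14.99, and 20.02 TPM in Prdm16SMKO (log2 fold change −0.08 ± 0.21, adjusted p = 0.918 by limma). C1qb and C1qc had log2 fold changes of 0.08 and 0.05.

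The resident macrophage genes summed to 30.4, 16.5, and 21.4 TPM in control and 28.4, 12.2, and 21.2 TPM in Prdm16SMKO, 90.6% of control, with overlapping groups. Pf4, a chemokine of platelets that resident macrophages also express, was the most abundant, at 11.6, 4.82, and 6.35 TPM in control and 11.4, 3.85, and 6.93 TPM in Prdm16SMKO. Each genotype held 1 aorta above 11 TPM and 2 below 7 TPM (log2 fold change −0.07 ± 0.41). The platelet markers also overlapped, with a sum of 3.96 to 6.28 TPM in control and 3.01 to 9.59 TPM in Prdm16SMKO and 0 of 4 tested genes called. Lyve1, a hyaluronan receptor of resident arterial macrophages and of lymphatic endothelium, had the lowest fold change of the group. It measured 5.53, 4.27, and 5.11 TPM in control and 3.57, 2.43, and 4.61 TPM in Prdm16SMKO (log2 fold change −0.52 ± 0.25, limma adjusted p = 0.444). One Prdm16SMKO aorta lay inside the control range. The sum of the lymphatic endothelial markers was lower beside it, at 10.6 to 22.0 TPM in control and 4.03 to 4.98 TPM in Prdm16SMKO. On this list of markers, Pdpn and Ccl21a held most of the control sum. Their control means were 6.45 TPM for Pdpn and 4.99 and 2.25 TPM for the entries of Ccl21a. Of 5 tested entries on that list 1 was called, Pdpn (podoplanin), at 7.76, 6.46, and 5.12 TPM in control and 1.41, 1.12, and 1.09 TPM in Prdm16SMKO (adjusted p = 0.00394). The defining lymphatic factor Prox1 was at 0.06 to 0.28 TPM in control and 0.03 to 0.12 TPM in Prdm16SMKO, and Flt4 had a log2 fold change of −0.15. The part of lymphatic endothelium in the Lyve1 values was not tested. The mannose receptor Mrc1, the haptoglobin-hemoglobin receptor Cd163, and Folr2 had log2 fold changes of −0.36, −0.03, and 0.08. The log2 ratio of the resident sum to the pan-macrophage sum was −0.69, −1.04, and −0.91 in control and −0.82, −1.39, and −1.10 in Prdm16SMKO, means of −0.88 ± 0.18 and −1.10 ± 0.28 (SD, n = 3). When the ratio was taken from the mean of log2 values, so that each gene counted alike, it was 1.4 ± 0.06 in control and 0.86 ± 0.39 in Prdm16SMKO and the groups did not overlap. That version gives low genes the same weight as Lyz2, and the part of any single gene in it, Aif1 included, was not tested.

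**Figure D5:**
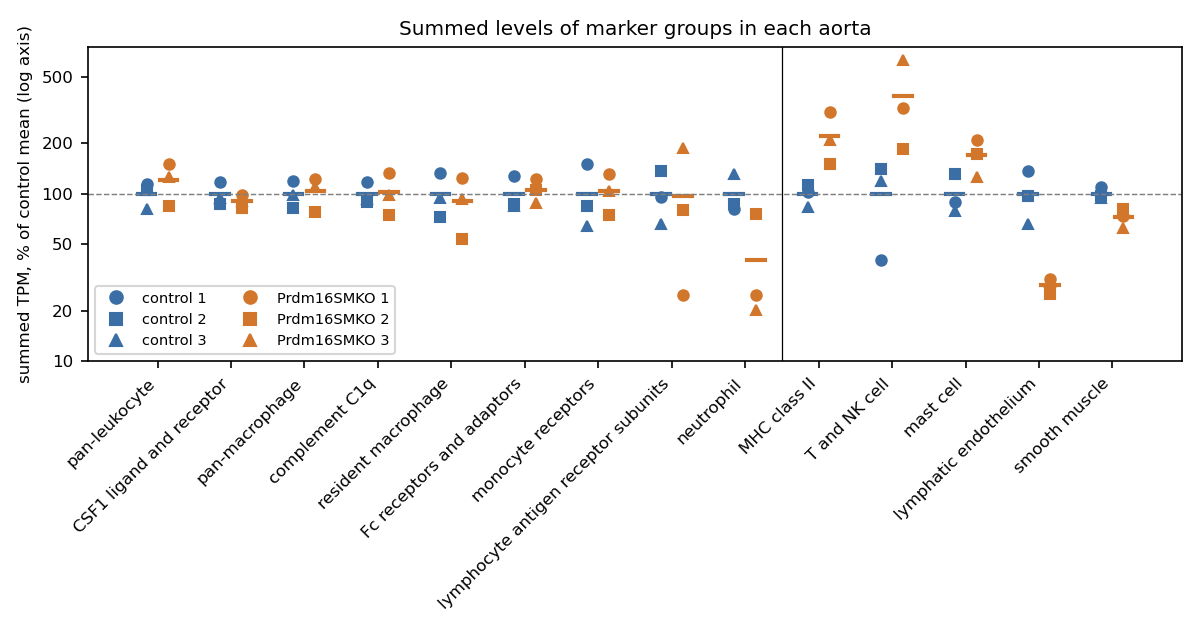
Summed TPM of each group of genes in each aorta is plotted as a percent of the control mean on a log axis, with a bar for the mean of each genotype. The groups of the 33 genes are left of the vertical line, where the genotypes overlap except for the neutrophil pair, and further lists are on the right, where MHC class II and T and NK cell genes lie higher and lymphatic endothelium and smooth muscle lower in all Prdm16SMKO aortas.

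None of the tested pan-leukocyte, Fc receptor, and monocyte receptor genes passed the test, and Fcgr1, Ccr2, and Cx3cr1 were too low to be tested. Laptm5, a lysosomal membrane protein of blood-derived cells, measured 3.30, 2.88, and 2.11 TPM in control and 4.57, 2.83, and 3.69 TPM in Prdm16SMKO (log2 fold change 0.40 ± 0.26, adjusted p = 0.555 by limma). Ptprc, the gene for the common leukocyte antigen CD45, was at 1.36, 1.39, and 1.18 TPM in control and 1.55, 0.62, and 1.48 TPM in Prdm16SMKO. The low value of Prdm16SMKO replicate 2 set the fold change of Ptprc (−0.19, and 0.20 without that aorta). Fcer1g, the shared signaling chain of Fc receptors, measured 7.13, 2.69, and 4.81 TPM in control and 5.99, 3.06, and 4.16 TPM in Prdm16SMKO. The adaptor Tyrobp (DAP12) and the Fc receptor gene Fcgr3 had log2 fold changes of 0.21 and −0.01. Cd14, the lipopolysaccharide co-receptor, measured 2.78, 1.60, and 1.37 TPM in control and 2.44, 1.34, and 1.62 TPM in Prdm16SMKO. Ccr2, which marks recruited monocytes, was at 0.10 to 0.43 TPM in control and 0.21 to 0.59 TPM in Prdm16SMKO. Cx3cr1, the fractalkine receptor, was at 0.07 to 0.39 TPM and 0.24 to 0.38 TPM, and its annotated span overlaps 5 other protein-coding genes, as that of Csf1r overlaps Hmgxb3. The library kit does not mark strand, so reads of overlapping genes cannot be told apart by strand.

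The lymphocyte antigen receptor genes were near the limit of the table. Cd3e, a T cell receptor complex subunit, measured 0.32, 0.75, and 0.08 TPM in control and 0.08, 0.19, and 0.56 TPM in Prdm16SMKO. Cd3d was listed at 0 in 3 of the 6 aortas and reached 0.20 TPM at most. Cd79a, a B cell receptor subunit, measured 0.20, 0.08, and 0.32 TPM in control and 0, 0.29, and 0.37 TPM in Prdm16SMKO. No order between the genotypes can be read from these levels.

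S100a8 and S100a9 encode the paired subunits of calprotectin, a calcium-binding protein abundant in neutrophils. S100a8 measured 1.10, 0.80, and 0.83 TPM in control and 0.44, 0, and 0 TPM in Prdm16SMKO. The groups did not overlap, and the adjusted p was 0.265 by limma. The fitted log2 fold change of −2.51 ± 0.87 rests on aortas listed at 0 and moved between −0.75 and −4.68 with the pseudocount and the other settings. S100a9 measured 0.33, 0.74, and 1.5 TPM in control and 0, 1.34, and 0.36 TPM in Prdm16SMKO, and the aorta with the highest S100a9 level in Prdm16SMKO had S100a8 listed at 0. The pair summed to 1.43, 1.54, and 2.33 TPM in control and 0.44, 1.34, and 0.36 TPM in Prdm16SMKO, without overlap. The neutrophil genes Ly6g, Mpo, and Camp were listed at 0 in all 6 aortas. The red cell genes, a measure of blood in the sample, summed to 944 to 4620 TPM in control and 761 to 2625 TPM in Prdm16SMKO. Their part in the S100a8 values was not tested.

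Further leukocyte genes outside the 33 were listed by cell type to set these markers in context. Of 101 such genes 64 were tested, with 1 called higher and 1 called lower. The groups were without overlap for 19 of the 64, 11 higher and 8 lower, against 4.08% and 14.9% of all genes. The lists were chosen with earlier results of these data known, so no excess over all genes can be read from these counts. The MHC class II genes, which present antigen to T cells and whose products dendritic cells, B cells, and activated macrophages carry, were mostly higher in Prdm16SMKO. All 4 tested had groups without overlap, with log2 fold changes from 1.01 to 1.21, and H2-Eb1 passed the test. The fifth gene, the class II regulator Ciita, was below the filter, at 0.45, 0.48, and 0.20 TPM in control and 0.66, 0.47, and 0.42 TPM in Prdm16SMKO, with overlap. H2-Eb1 measured 8.33, 8.65, and 6.29 TPM in control and 23.5, 14.1, and 15.5 TPM in Prdm16SMKO (log2 fold change 1.16 ± 0.22, adjusted p = 0.0497 by limma). H2-Ab1, H2-Aa, and the invariant chain Cd74 had adjusted p values of 0.0845, 0.140, and 0.126. Per 100 TPM of the summed C1q genes, the MHC class II genes held 75.0, 107, and 76.5 TPM in control and 198, 171, and 180 TPM in Prdm16SMKO, without overlap, a comparison also chosen after the values were seen. Per 100 TPM of Csf1r or Cd68 the groups overlapped. H2-Eb1 passed in 5 of 15 alternatives, with adjusted p values from 0.0164 to 0.175. Every one of the 3 control and 3 Prdm16SMKO aortas was needed for the call, since leaving out any of them gave an adjusted p from 0.0553 to 0.151.

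Cbr2 was the gene called lower. It encodes a carbonyl reductase known from lung that is also used as a marker of resident macrophages. It measured 407, 314, and 330 TPM in control and 179, 209, and 141 TPM in Prdm16SMKO (log2 fold change −0.998 ± 0.16, adjusted p = 0.0271 by limma). At these levels Cbr2 was above every one of the 33 macrophage and leukocyte genes. The call was lost without control replicate 1 (adjusted p = 0.093), control replicate 3 (0.0913), or Prdm16SMKO replicate 1 (0.0716), and over 15 alternatives the adjusted p ran from 0.00565 to 0.151. The lysosomal genes Cd63, Ctsb, and Ctsd, which most cell types express, also had all Prdm16SMKO aortas below all control aortas, with log2 fold changes of −0.28, −0.44, and −0.16 that did not pass. The smooth muscle markers summed to 20405 to 23692 TPM in control and 13570 to 17531 TPM in Prdm16SMKO, and the part of that difference in the levels of Cbr2 and the lysosomal genes was not tested.

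Lymphocyte and mast cell genes were low and several were higher in all Prdm16SMKO aortas, none past the threshold. Lck, the T cell kinase, measured 0.27, 0.87, and 0.80 TPM in control and 2.31, 2.3, and 2.90 TPM in Prdm16SMKO (log2 fold change 1.92 ± 0.43, adjusted p = 0.0851 by limma). Trbc2, a constant segment of the T cell receptor β chain, measured 0, 0.25, and 0.66 TPM in control and 2.07, 0.53, and 4.34 TPM in Prdm16SMKO, with overlap. The 8 T and NK cell genes summed to 0.73, 2.55, and 2.19 TPM in control and 5.95, 3.38, and 11.6 TPM in Prdm16SMKO, 382% of control and without overlap. The other T cell genes were below the filter and overlapped between the groups. Cd3e and Cd3g had lower means in Prdm16SMKO (0.383 and 0.277 TPM for Cd3e, 0.310 and 0.160 TPM for Cd3g, control first), and Cd4, Cd8a, and Cd2 had higher means (0.223 and 0.530, 0.157 and 0.647, and 0.11 and 0.39 TPM). The immunoglobulin genes went opposite ways, with Igkc at 2.74, 0, and 0.35 TPM in control and 4.73, 4.2, and 9.39 TPM in Prdm16SMKO, and Ighm at 8.49, 6.36, and 4.2 TPM in control and 3.03, 2.5, and 3.17 TPM in Prdm16SMKO. Their adjusted p values were 0.172 and 0.122. Jchain and the signaling gene Vav1, both below the filter, were also higher in all Prdm16SMKO aortas, Jchain at 0 to 0.05 TPM in control and 0.10 to 1.03 TPM in Prdm16SMKO and Vav1 at 0.24 to 0.42 and 0.43 to 0.65 TPM. All 5 tested mast cell genes had a fold change above 0, and Kit and Mcpt4 had groups without overlap, with Kit at 1.36, 1.95, and 1.33 TPM in control and 2.38, 2.89, and 3.28 TPM in Prdm16SMKO (adjusted p = 0.230). Without overlap and not past the threshold were also Rac2, Fermt3, and Cd84 (higher) and Mmp9, Csf2rb, and C4b (lower), with adjusted p values of 0.378, 0.575, 0.519, 0.316, 0.247, and 0.225. Spi1, the gene for the myeloid master regulator PU.1, was at 0.64 to 2.77 TPM in control and 1.2 to 2.56 TPM in Prdm16SMKO. In the remaining lists the most abundant genes overlapped between the groups. Cebpb and Cebpa, transcription factors of myeloid cells and adipocytes, had log2 fold changes of −0.03 and −0.23. The NADPH oxidase subunit Cyba had a log2 fold change of −0.02, and Plac8 and Zbtb46, from the monocyte and dendritic cell list, 0.15 and −0.02.

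Csf1 and its receptor are the ligand and the receptor on which these macrophages depend. Csf1, made by stromal cells including smooth muscle and fibroblasts, measured 33.3, 26.5, and 27.7 TPM in control and 26.9, 25.7, and 23.9 TPM in Prdm16SMKO. The ranges overlapped (limma log2 fold change −0.19 ± 0.13, adjusted p = 0.594). The 95% interval from −0.49 to 0.11 was the narrowest of the 27. Csf1r measured 7.62, 3.90, and 5.23 TPM in control and 7.19, 2.90, and 7.83 TPM in Prdm16SMKO (log2 fold change 0.03 ± 0.38, adjusted p = 0.989).

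In the PRDM16 ChIP-Seq of vascular fibroblasts, Csf1 and Csf1r were the 2 genes of the 33 with a peak centre within 2 kb of an annotated start site. A peak in that window was found for 6074 of the 15668 genes tested in the aorta, 38.8%, a set that leaves out 6 of the 33. The vector library had such a peak at 0 of the 33 genes and at 0.0128% of the genes tested. The Csf1 peak lay at chr3:107759939-107760568 (GRCm38, 630 bp), with its centre 12 bp upstream of a start site. Its fold enrichment was 7.03, above 82.4% of the 11271 PRDM16 peaks, and its −log10 q was 9.88. The Csf1r peak was 304 bp long, had its centre 1677 bp downstream of a start site, and reached a fold enrichment of 4.57, above 28.6% of peaks. With a window of 1 kb, Csf1 alone remained, against 36.9% of genes tested. The peak nearest to Aif1 was 46.2 kb away, and those nearest to Cd79a, Fcgr3, Folr2, Tyrobp, and Cd14 were 5.5 to 8.5 kb away. Each condition had 1 library, so no test was made. Fibroblasts make Csf1, but they are not leukocytes, in which the other genes of the list are mainly active. The part of the cell type in these peak counts was not tested.

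A Csf1 promoter window is shown because that peak overlaps it. The peak centre and the start site nearest to it, chr3:107760242, lie downstream of this window. The window belongs to another start site of the gene. The RefSeq window (GRCm38.p6, chr3:107760420-107760719, minus strand) shares 149 of its 300 bases, the downstream part as the gene reads, with the peak, and every CpG is in capitals.
Csf1: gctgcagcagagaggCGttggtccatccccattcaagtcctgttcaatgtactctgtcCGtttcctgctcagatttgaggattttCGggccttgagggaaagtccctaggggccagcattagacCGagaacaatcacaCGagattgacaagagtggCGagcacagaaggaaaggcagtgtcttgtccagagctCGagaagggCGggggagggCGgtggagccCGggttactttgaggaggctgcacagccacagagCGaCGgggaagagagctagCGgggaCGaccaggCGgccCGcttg
It holds 16 CpGs, the most of the 27 genes of the list that had a window in the RefSeq table, where the others held 1 to 9 and the median over all windows was 7. No window was matched for Lyve1, Adgre1, C1qa, Cd14, Csf1r, and Tyrobp.

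The promoters of the leukocyte genes were also searched, on both strands, for the letters of 4 transcription factor motifs. GAGGAAG, the core bound by PU.1, was in 9 of 27 matched genes (33.3%) against 15.4% of all 27025 genes with a window. The matches are printed with 10 bases on either side and the motif in capitals. Each is read 5′ to 3′ on the strand opposite to its gene, and the windows stand in GRCm38.p6 at chr1:171059394-171059420 (Fcgr3), chr2:14229236-14229262 (Mrc1), chr2:14229368-14229394 (Mrc1), chr3:90668890-90668916 (S100a8), chr3:95526775-95526801 (Ctss), chr3:96294009-96294035 (Fcgr1), chr4:130913267-130913293 (Laptm5), chr4:136893092-136893118 (C1qc), chr5:90772416-90772442 (Pf4), chr17:48346350-48346376 (Trem2).
Fcgr3: actacaaaaaGAGGAAGgaaatggact
Mrc1: taaggcacagGAGGAAGgggagagagg
Mrc1: aaggaggacaGAGGAAGctgtcccttt
S100a8: ttctgagtctGAGGAAGtgggagtgtt
Ctss: catccacaatGAGGAAGtgaactttca
Fcgr1: gattagaaaaGAGGAAGgaagttgcca
Laptm5: gaacaaaaaaGAGGAAGccacaggctg
C1qc: gtgccaaaatGAGGAAGtgtctgccgt
Pf4: gatacaggatGAGGAAGtgctctgcag
Trem2: gtgagggaggGAGGAAGgaaaggaggc
The match centres lay between 190 bases upstream (C1qc) and 3 bases downstream (Ctss) of a start site, and Mrc1 had a pair of matches. TTGCNNAA, a C/EBP site, was in 5 of 27 (Cd68, Fcgr3, Pf4, S100a9, and Trem2), 18.5% against 12.2% of all genes. TGANTCA, the AP-1 motif, was in 5 of 27 (Cd68, Cybb, Folr2, Ms4a7, and Trem2), 18.5% against 8.97%. CACGTG, the E-box bound by the clock factors, was in 0 of 27 against 8.09%. Aif1, the gene that rose, held none of the 4 motifs in its window, and none of the 4 definitions contains another. The matches describe the sequence and not binding.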

How the data were processed

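RNA-Seq was available for the thoracic aortas of 3 control and 3 Prdm16SMKO mice and ChIP-Seq peak lists for 2 anti-Flag libraries of vascular fibroblasts, and the IgG libraries were not analysed here. Samples were grouped by their titles, and the table columns named WT and KO were taken as control and Prdm16SMKO by replicate number. The authors deposited TPM, 1 column per aorta, from poly(A)-selected libraries, and the submitters' processing notes name STAR 2.7.8a and RSEM 1.3.3 on GRCm38. TPM as deposited keep no read numbers. Sequencing depth is therefore unknown here, and no counting interval was computed. Each column sums to the TPM total, and 13331 to 14007 genes reached 1 TPM. The fold enrichment, a ratio over local background, and the −log10 q of each peak were given by the authors from MACS2, run per library after bowtie2 mapping to GRCm38.

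The genotypes were compared by limma 3.58.1 (R 4.3.3; lmFit, then eBayes with a trend and no covariates) on log2(TPM + 0.1) for the 15668 genes that averaged 0.5 TPM or more. Fold changes are on that scale, which understates changes of low genes, and p values are 2-sided with Benjamini-Hochberg adjustment over all genes tested and a threshold of 0.05. On simulated data the procedure was tested before use. An exact permutation test of 3 against 3 aortas cannot go below p = 0.1 and was not used. Groups were without overlap when every value of one lay above every value of the other. Sums, ratios, peak distances (peak centre to the start sites of GENCODE basic transcripts), and promoter motifs (RefSeq windows of GRCm38.p6) are descriptions without a test. Alternatives were other pseudocounts and filters, median ratio rescaling, quantile normalization, no trend, the replicate number as a block, each aorta left out, and other peak windows.

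The 33 genes and the further lists were chosen with earlier results of these data known. All 33 are accounted for, with every value given for genes called, for genes whose groups did not overlap, and for the most abundant gene of each role. From the further lists, genes called or without overlap were named, and otherwise the 2 most abundant, of which 1 gene is not reported here. Lyve1, Trem2, Ptprc, Spi1, and the genes near Aif1 were named beyond this rule after their values were seen.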

Additional observations from a re-analysis of the deposited data

How the results depend on the processing

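The 168 genes called over the whole table became 110 without a filter on low values, 411 after median ratio rescaling, 392 after quantile normalization, 48 without a mean-variance trend, 291 over protein-coding genes only (an alternative added after the data were seen), and 91 to 141 with 1 aorta left out. After median ratio rescaling the calls split into 196 higher and 215 lower and after quantile normalization into 189 and 203, against 61 and 107 as reported. Of the 33 genes, 1 (Aif1) was called as reported and 0 with a pseudocount of 1 or 0.01, without a filter, after quantile normalization, or without a trend, and 0 to 1 with 1 aorta left out. Of the wider list, 2 were called as reported, 1 with either other pseudocount, 0 without a filter or without a trend, 4 over protein-coding genes only (Lck, Cbr2, H2-Eb1, and H2-Ab1), and 0 to 3 with 1 aorta left out. The cause of these changes was not tested.

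Replicate numbers did not mark pairs of aortas. The deviations of same-numbered aortas from their group means had correlations of −0.0246, −0.07, and −0.00896. With the replicate number as a block, 184 genes were called, Aif1 was the 1 gene called of the 33, and 2 of the wider list were called. The number of the 33 genes with groups without overlap was 3 after median ratio rescaling and 3 to 6 with 1 aorta left out (6 without control replicate 2 or without Prdm16SMKO replicate 2), where 24.7% to 36.9% of all genes tested had groups without overlap. The log2 ratio of neutrophil sums, −1.31 as reported, ran from −2.14 to −0.99 with 1 aorta left out, lowest without Prdm16SMKO replicate 2. The difference in the log2 ratio of resident to pan-macrophage genes, −0.22 as reported, was −0.54 with the mean of log2 values. With a window of 1 kb, 1 gene of the 33 had a PRDM16 peak, and with 5 kb, a q of at most 0.001, the summit, or curated RefSeq transcripts (added after the data were seen) the number was 2.

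Of 396 alternative values of the 27 genes tested, 351 kept the direction of the reported log2 fold change, and 45 from 17 genes turned, all of reported changes of 0.21 or less in size. They turned to 0.038 (C1qa), 0.082 (Cd163), 0.044 (Pf4), 0.11 (Fcgr3), 0.025 (Fcer1g), 0.049 (Cd14) after median ratio rescaling, to 0.038 (C1qa), 0.034 (Cd163), 0.033 (Pf4), 0.064 (Fcgr3), 0.0002 (Fcer1g) after quantile normalization, and to 0.001 (Fcgr3) with a pseudocount of 1. With 1 aorta left out, the values of the genes that turned ran from −0.40 to 0.20 (Ptprc), −0.23 to 0.47 (Csf1r), −0.19 to 0.22 (Cd68), −0.37 to 0.54 (Adgre1), −0.35 to 0.036 (Lyz2), −0.20 to 0.30 (Ms4a7), −0.48 to 0.71 (Trem2), −0.30 to 0.13 (C1qa), −0.022 to 0.23 (C1qb), −0.26 to 0.29 (C1qc), −0.32 to 0.22 (Cd163), −0.32 to 0.47 (Folr2), −0.45 to 0.32 (Pf4), −0.21 to 0.32 (Fcgr3), −0.46 to 0.23 (Fcer1g), −0.19 to 0.65 (Tyrobp), −0.29 to 0.22 (Cd14). TPM holds no read counts, so the depth behind the low genes is unknown, and 3 aortas a group limit the precision.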
